A study of Mus musculus with 6 samples.

Results

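The clustered protocadherin genes of the mouse lie side by side on chromosome 18 as the Pcdha, Pcdhb and Pcdhg clusters. They were examined here as the ATAC-seq peaks that overlap chromosome 18 from 37050000 to 38010000 in build mm9, a window of 960 kb. The 6 peak lists held 252 such peaks, which merged into 96 regions where peaks of any lists overlapped by at least 1 bp, out of 149724 regions in all and beside 8415 on the rest of chromosome 18. The libraries came from RAG2-deficient pro-B cell lines, that is, cells at an early stage of the B lymphocyte lineage, labelled strain 129SV and tissue bone marrow and grown without treatment. All 3 lines therefore lack RAG2, which together with RAG1 cuts DNA during V(D)J recombination. The line called WT has the genotype wild type. The lines called CBE_1 and CBE_2 have the genotype IGCR1-/-. IGCR1 is an intergenic control region of the immunoglobulin heavy chain locus, which lies on another chromosome. There are 2 libraries per line, and 200000 cells went into each. The labels do not state whether duplicates are separate cultures or how many clones a mutated line represents, so their spread may be technical, and line and genotype cannot be told apart.

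Clustered protocadherins are cell adhesion proteins best known from neurons, where each cell uses a small choice of them as a surface identity. In the Pcdha and Pcdhg clusters every variable first exon has its own promoter and is spliced to constant exons shared by the cluster, while each Pcdhb gene is a separate coding exon. Many of the promoters and the distant enhancers bind the insulator protein CTCF, and loops held by CTCF and cohesin bring an enhancer to the chosen promoter. The RefSeq gene table of assembly GRCm38.p6 gives 14 Pcdha, 22 Pcdhb and 22 Pcdhg genes, 58 in all, in that order. Zmat2 is the last protein-coding gene before Pcdha1. Slc25a2, a mitochondrial carrier gene, and Taf7, which encodes a subunit of the general transcription factor TFIID, lie between Pcdhb22 and Pcdhga1, and Diaph1, a formin gene, follows the Pcdhg genes. That table is of another build than the peaks, so no peak is tied to a gene, exon or promoter here, and the labelled cell type was not checked against marker genes. By general knowledge of mm9, with approximate borders, the first 350 kb of the window hold the Pcdha cluster, the next 350 kb the Pcdhb cluster, and the last 260 kb Slc25a2, Taf7 and the Pcdhg cluster.

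Peaks in the window were fewer in both mutated lines. The lists held 70 and 76 window peaks for WT, 28 and 24 for CBE_1, and 28 and 26 for CBE_2. Every WT library thus had more than every mutated library, and the duplicates of a line differed by 6 peaks or fewer. The means were 73.0 ± 4.24 (SD, n = 2) in WT, 26.0 ± 2.83 (SD, n = 2) in CBE_1 and 27.0 ± 1.41 (SD, n = 2) in CBE_2, which is 0.356 and 0.370 times the WT mean. Lists differed in length, from 72318 to 112241 peaks, and read depth behind them is unknown. Over whole lists the ratio to WT was 0.699 in CBE_1 and 0.880 in CBE_2. In a bulk library, fewer cells with an open site and a site less open in every cell cannot be told apart.

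**Figure D1:**
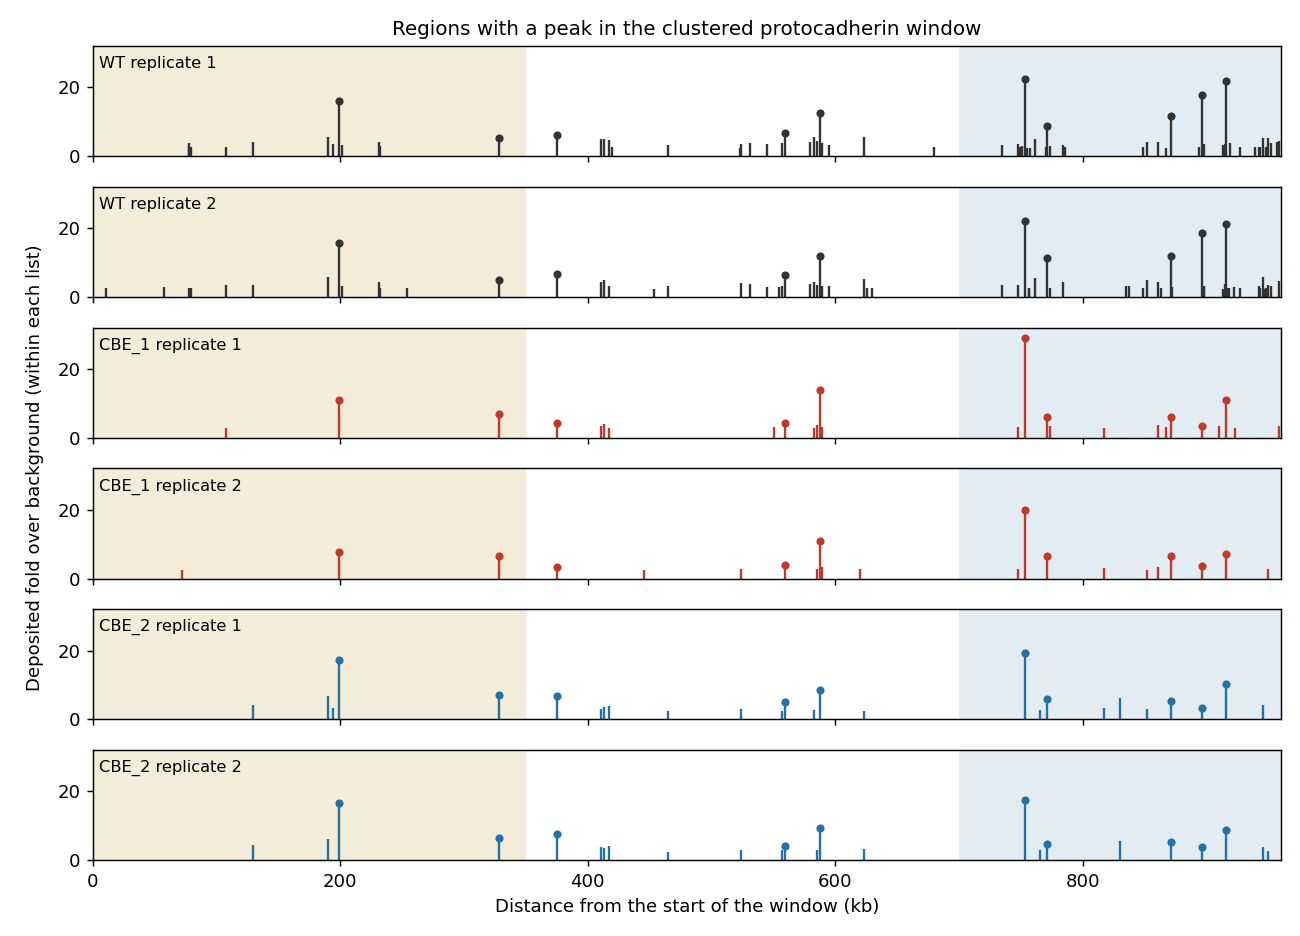
Each line stands at a region with a peak in that library, by distance from the start of the window in kb, and its height is the highest deposited fold over background of the region's peaks, a value to be read within each list. Dots mark the 10 regions present in all 6 libraries, and the shaded first 350 kb, unshaded next 350 kb and shaded last 260 kb are the approximate Pcdha, Pcdhb and Pcdhg parts. The WT libraries have 70 and 76 peaks and the others 24 to 28.

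Chromosome 18 itself was the reference, because CBE_2 has few peaks on it, 3.12% of the list in both libraries against 5.37% and 5.195% in WT. Outside the window the chromosome held 0.777 times the WT number of peaks in CBE_1 and 0.521 times in CBE_2. The window took 1.16% (Wilson 95% interval 0.920 to 1.46) and 1.38% (1.10 to 1.72) of the chromosome 18 peaks in WT. The CBE_1 shares were 0.681% (0.472 to 0.983) and 0.501% (0.337 to 0.744). The CBE_2 shares were 0.948% (0.657 to 1.37) and 0.855% (0.584 to 1.25). These intervals cover counting error of peaks only. The libraries of the 3 lines did not overlap in this share, with WT highest and CBE_1 lowest, although the Wilson intervals of CBE_2 overlapped those of WT and of CBE_1, and the interval of CBE_1 replicate 1 overlapped that of WT replicate 1. The mean of WT exceeded that of the other 4 libraries by 0.524 percentage points (1.27% against 0.746%). An exact permutation test, two-sided, over the 15 choices of 2 libraries gave p = 0.0667, the smallest that this design allows, and p = 0.200 after Benjamini-Hochberg adjustment over 9 tests. CBE_1 was lower than the other 4 libraries by 0.495 points (exact p = 0.133, adjusted p = 0.200). For CBE_2 the difference was -0.0292 points (exact p = 0.867), and its sign turned without WT replicate 1 (0.0475), WT replicate 2 (0.120) or CBE_2 replicate 2 (0.0174).

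Covered bases gave the same order. Window peaks covered 40.5 and 37.0 kb for WT, 12.1 and 11.9 kb for CBE_1, and 14.1 and 12.9 kb for CBE_2. As a share of all covered bases of chromosome 18 this was 1.09% in both WT libraries, 0.498% and 0.409% in CBE_1, and 0.681% and 0.615% in CBE_2. WT stood 0.536 points above the other lines (exact permutation p = 0.0667, adjusted p = 0.200), and CBE_1 stood 0.414 points below WT and CBE_2 (exact p = 0.133, adjusted p = 0.200). The median peak of the window was 390.5 and 375.5 bp wide for WT, 293.5 and 370.0 bp for CBE_1, and 375.5 and 378.5 bp for CBE_2. On the rest of the chromosome the medians were 388.0 and 391.0 bp for WT, 365.0 and 376.0 bp for CBE_1, and 464.5 and 458.0 bp for CBE_2. In CBE_2 the remaining peaks of chromosome 18 were therefore wider than in WT, while those of the window were not.

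The stretches on either side of the window differed less. In the 500 kb before it, CBE_1 had 0.680 times and CBE_2 0.447 times the WT number of peaks. In the 500 kb after it the ratios were 0.848 and 0.598. Chromosome 18 was also tiled in bins of 960 kb outside the window, and 67 bins with a WT mean of at least 20 peaks were kept. Their median ratio to WT was 0.780 in CBE_1 (range 0.282 to 1.87) and 0.543 in CBE_2 (range 0.133 to 1.32). The window's ratio in CBE_1 was undercut by 2 of the 67 bins, and its ratio in CBE_2 by 13. In 6 bins, as in the window, CBE_1 had a lower ratio than CBE_2. The mean of 73.0 peaks in WT lay inside the range of the bins, 38 of which had fewer.

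**Figure D2:**
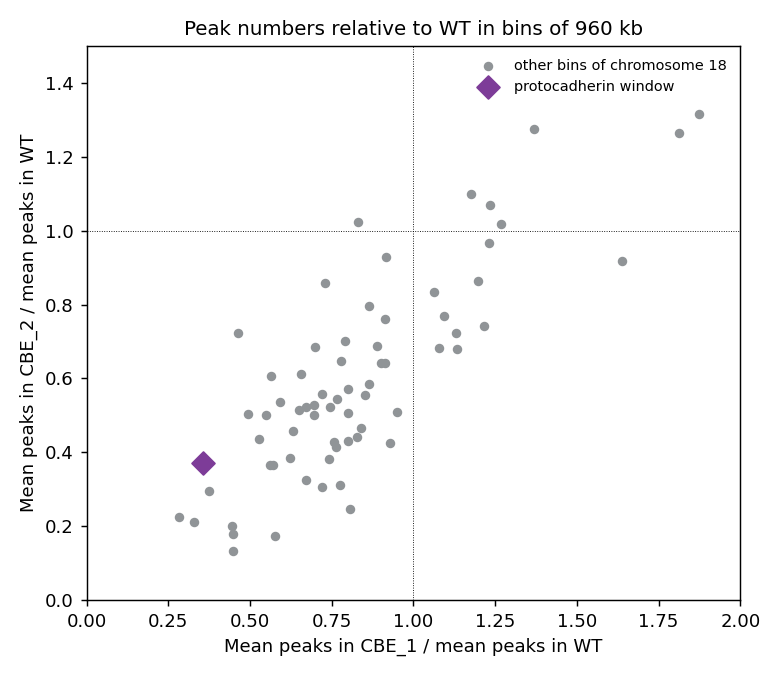
Each grey point is a 960 kb bin of chromosome 18 outside the window with a WT mean of at least 20 peaks (67 bins), placed by the mean number of peaks in CBE_1 (x axis) and in CBE_2 (y axis), each divided by the WT mean. The diamond is the protocadherin window at 0.356 and 0.370, and dotted lines mark a ratio of 1.

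All 3 parts of the window held fewer peaks in the mutated lines. The Pcdha part held 13 and 14 peaks for WT, 4 and 5 for CBE_1, and 6 and 5 for CBE_2. In the Pcdhb part there were 20 and 22 for WT, 10 and 8 for CBE_1, and 11 for each CBE_2 library. The Pcdhg part, with Slc25a2 and Taf7, held 37 and 40 for WT, 14 and 11 for CBE_1, and 11 and 10 for CBE_2. Relative to WT the Pcdhb part had the highest ratios, at 0.429 in CBE_1 and 0.524 in CBE_2, and the Pcdhg part the lowest, at 0.325 and 0.273. Differences between parts were not tested. In CBE_2 the Pcdhb ratio is close to the 0.521 of the rest of chromosome 18, whereas in CBE_1 the ratio of every part lay below the 0.777 of the rest.

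Among the 96 regions, few were common to every library and many belonged to WT. Regions present in all 6 libraries numbered 10 (10.4%, against 20.8% on the rest of chromosome 18). Regions present in both WT libraries and no other, called WT-only, numbered 21 (21.9% against 10.5%). Regions found in each of the 4 mutated libraries but not in WT numbered 0 (1.02% on the rest), and those of CBE_1 alone 0 (1.98% on the rest). A count of 0 of 96 regions allows a share of up to 3.13%, which covers counting error only. Regions of both CBE_2 libraries alone numbered 2 (2.08% against 0.594% on the rest), and their share over all regions of the genome was higher, at 3.14%. Regions missing from both CBE_1 libraries and present in the other 4, called CBE_1-absent, numbered 6 (6.25% against 0.844%). CBE_2-absent regions numbered 3 (3.13% against 3.1%). Over all 149724 regions the shares were 5.05% for CBE_1-absent, near that of the window, 0.6525% for CBE_2-absent and 8.685% for WT-only. The WT-only share was thus above that of the rest of the chromosome, and the CBE_2-absent share close to it. Leaving out a WT library relaxes the WT-only rule to presence in 1 list, and the count became 43 without WT replicate 1 (50.0%, against 23.2% on the rest) and 37 without WT replicate 2 (46.3%, against 27.3%). CBE_2-absent regions were 6 without CBE_1 replicate 2 (6.45%, against 4.83%) and 2 without WT replicate 1 (2.33%, against 4.25%), so their share lay on either side of the rest. CBE_1-absent regions were 6 to 9 when any 1 library was left out (6.19% to 9.78%, against 1.04% to 2.29% on the rest). Without CBE_1 replicate 2 they were 7 (7.53%, against 2.29%). With every list shortened to the 72318 best peaks of the shortest one, 54 regions were left, of which 6 were WT-only (11.1%, against 5.59% on the rest) and 3 CBE_1-absent (5.56%, against 0.627%). When lists were reduced to their better 50%, 2 of 28 regions were CBE_1-absent (7.14%, against 3.75%), a smaller distance from the rest.

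**Figure D3:**
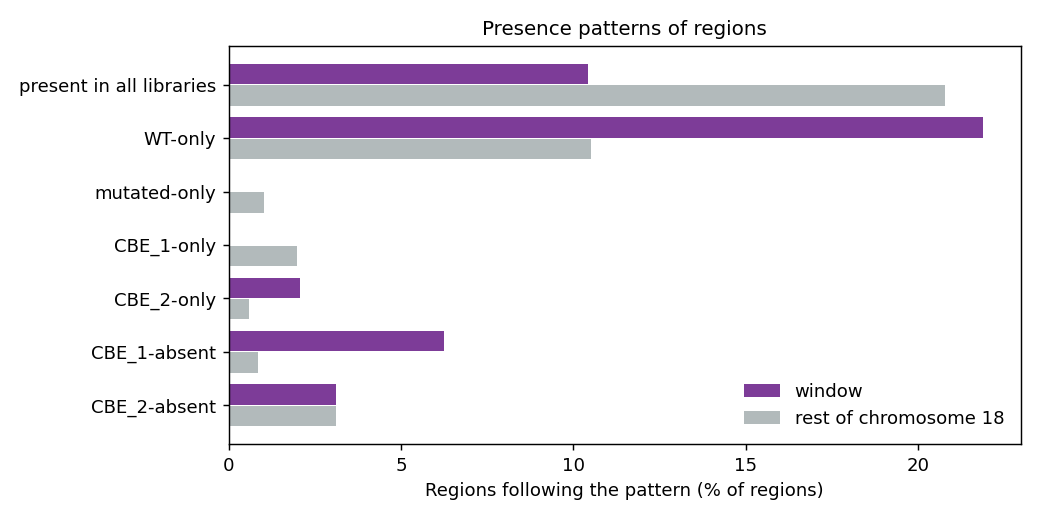
Bars give the percent of regions that follow each pattern of presence, for the 96 regions of the window (purple) and the 8415 of the rest of chromosome 18 (grey). WT-only regions make up 21.9% and 10.5%, CBE_1-absent regions 6.25% and 0.844%, and regions present in all libraries 10.4% and 20.8%. Over all regions of the genome, not drawn, the CBE_1-absent share is 5.05%.

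The regions of WT were then looked up in the other lines. Of 51 window regions present in both WT libraries, CBE_1 replicate 1 held 21 (41.2%) and CBE_1 replicate 2 held 17 (33.3%), against 59.4% and 69.0% of the WT regions on the rest of chromosome 18. Each CBE_2 library held 22 (43.1%), against 53.9% and 55.2%. The window's WT regions were split by strength at the 50th percentile of fold, averaged over both WT lists. Among the 22 stronger regions, 15 and 13 were found in CBE_1 (68.2% and 59.1%, against 85.7% and 89.1% on the rest) and 17 and 16 in CBE_2 (77.3% and 72.7%, against 87.2% and 87.7%). Among the 29 weaker regions, 6 and 4 were found in CBE_1 (20.7% and 13.8%, against 35.6% and 50.8%), and 5 and 6 in CBE_2 (17.2% and 20.7%, against 23.9% and 25.9%). In both classes all 4 mutated libraries lay below the rest of the chromosome, and the distance was widest for CBE_1 replicate 2.

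Peaks of the mutated lines stood farther apart. The median distance between successive summits in the window was 3.21 and 3.84 kb for WT, 9.33 and 25.9 kb for CBE_1, and 21.7 and 26.02 kb for CBE_2. On the rest of the chromosome it was 3.06 and 3.12 kb for WT, 4.06 and 3.46 kb for CBE_1, and 6.79 and 6.24 kb for CBE_2. By this median, WT had nearly the usual spacing in the window, and the mutated lines a wider one than elsewhere. Density differed less than spacing in CBE_2, with 29.17 and 27.08 peaks per Mb in the window against 32.58 and 33.58 on the rest. The densities were 29.17 and 25.0 against 45.45 and 53.11 in CBE_1, and 72.92 and 79.17 against 66.38 and 60.5 in WT. The longest interval without a summit in the mutated lines was 158.3 kb in CBE_1 replicate 1, from 37639548 to 37797805, and 129.7 kb in both CBE_2 libraries. Those CBE_2 intervals ran from 37673316 to 37803023 and from 37673322 to 37803016, across the approximate border of the Pcdhb and Pcdhg parts. In CBE_1 replicate 2 it was 127.9 kb, from 37250172 to 37378028, inside the Pcdha part. The WT libraries had their longest intervals in the same 2 stretches, of 95.6 kb (from 37282345 to 37377955, replicate 1) and 105.0 kb (from 37679616 to 37784645, replicate 2).

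The 10 regions present in every library can be compared by rank. The 47767 regions that every library holds, genome-wide, were ranked by fold in each library and the ranks expressed as percentiles, so all libraries order 1 common set. The median percentile of the 10 window regions was 66.1 and 64.9 for WT, 50.03 and 49.7 for CBE_1, and 43.1 and 45.6 for CBE_2. For the 1749 shared regions on the rest of chromosome 18 the medians were 47.8 and 46.7 for WT, 47.5 and 47.8 for CBE_1, and 39.5 and 40.4 for CBE_2. In WT the window's shared regions thus ranked above those of the rest of the chromosome, and in the mutated lines the distance was smaller. The WT median exceeded that of the other 4 libraries by 18.4 points (65.5 against 47.1, exact permutation p = 0.0667, adjusted p = 0.200). With the better 50% of each list, which left 7 shared window regions, the WT median was higher by 14.4 points (exact permutation p = 0.200). For CBE_2 the difference from the other libraries was -13.4 points (exact permutation p = 0.133, adjusted p = 0.200). For CBE_1 it was -5.03 points (exact permutation p = 0.733), and 2.94 without CBE_1 replicate 2. Region by region, the median difference between a line and WT was -15.6 points for CBE_1 and -14.8 for CBE_2 in the window, and -0.317 and -6.30 on the rest of the chromosome. Both differences use the same WT libraries.

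All 4 mutated libraries ranked below both WT libraries at 6 of the 10 regions (31.4% of shared regions on the rest of chromosome 18 did so) and above both at 1 (11.9%). Both CBE_1 libraries ranked below WT at 8 (36.3% on the rest) and above at 2 (32.2%). For CBE_2 the counts were 7 below (63.6%) and 3 above (17.4%), so the share below WT was near that of the rest. The lines lay on opposite sides of WT at 3 regions (14% on the rest). When the percentiles were taken only among the shared regions of the rest of chromosome 18, a setting chosen after seeing the data, 5 regions stood below WT in all 4 mutated libraries (22% of the rest) and 1 above (20.1%). CBE_1 was then below WT at 7 (33.4%) and above at 2 (35.3%). CBE_2 was below at 7 (38.4%) and above at 3 (32.9%), so its share below WT was no longer near that of the rest. The lines stood on opposite sides of WT at 3 (10%).

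**Figure D4:**
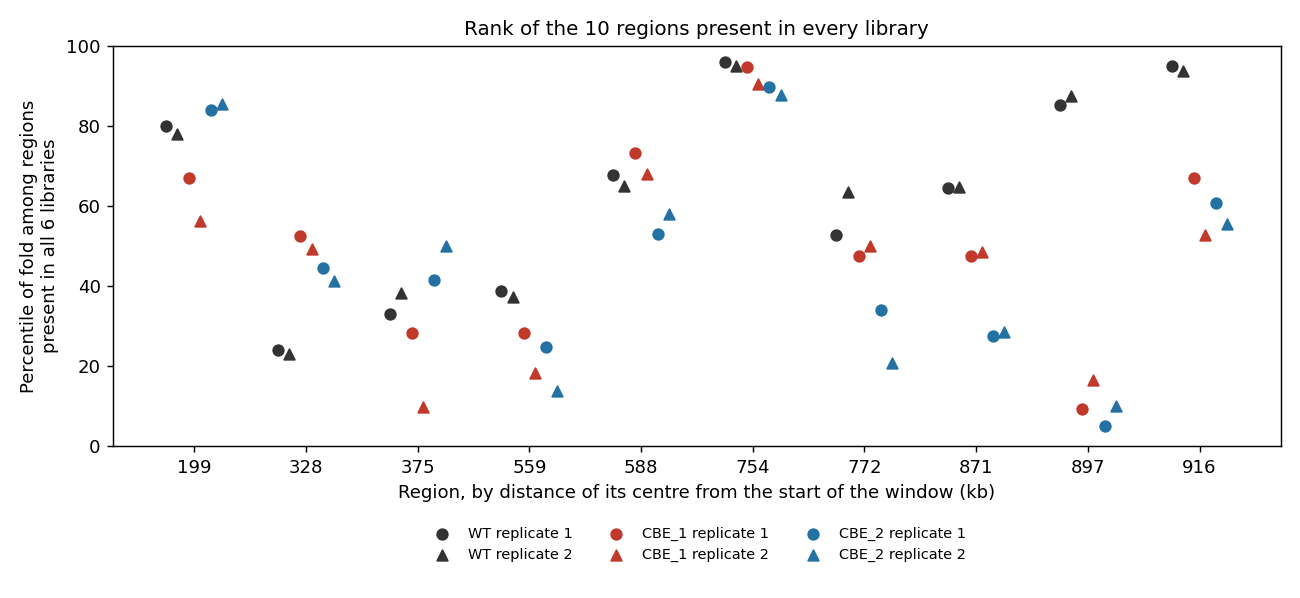
The percentile of fold among the 47767 regions present in all 6 libraries (y axis) is plotted for each of the 10 shared regions of the window, ordered by distance of the centre from the start of the window in kb, with 1 point per library. At 897 kb the WT libraries stand at 85.1 and 87.4 and the mutated ones between 5.02 and 16.6, while at 328 kb the mutated libraries stand above both WT libraries.

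In the Pcdha part, the region from 37247980 to 37250387, 199 kb from the start of the window, was 1 of the 3 widest of the window at 2408 bp. Its deposited folds were 16.1 and 15.7 for WT, 10.9 and 7.71 for CBE_1, and 17.2 and 16.6 for CBE_2. On the common scale it stood at percentiles 79.9 and 78.05 for WT, 66.9 and 56.2 for CBE_1, and 83.9 and 85.4 for CBE_2. By its highest peak, CBE_1 was low here and CBE_2 slightly above WT. The region was deposited as 1 peak in WT replicate 1 and CBE_2 replicate 1 and as 2 or 3 in the other libraries. Where it was split, the main summits lay near 37248423 and 37249511 (WT replicate 2), so it holds a pair of open sites about 1 kb apart. The strongest summit lay at the second site in WT and CBE_1, and at the first in CBE_2 (37248418 and 37248424). Ranks of CBE_2 and WT therefore come from different sites. Between the replicate 2 libraries, CBE_2 was above WT at the first site (16.64 against 14.39) and below it at the second (14.6 against 15.71).

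Before that region lay 2 regions that CBE_1 lacked. The region from 37239925 to 37240858 had folds of 5.63 and 5.93 in WT and 6.74 and 6.23 in CBE_2, and no peak in either CBE_1 library. The same held from 37179581 to 37179987, with folds of 4.11 and 3.41 in WT and 4.29 in both CBE_2 libraries. Among all peaks of each list, the first stood at percentiles 64.8 and 64.9 for WT and 67.8 and 66.7 for CBE_2, and the second at 50.4 and 34.9 for WT and 48.2 and 50.2 for CBE_2, where the lines overlapped. These were the 2 CBE_1-absent regions of the Pcdha part. On the other side, 37251343 to 37251833 (folds 3.25 and 3.30) and 37281403 to 37281783 (folds 4.22 and 4.28) were found in the WT libraries alone.

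At 37377678 to 37378244, near the end of the Pcdha part and 328 kb from the start of the window, the order was the other way round. Folds were 5.19 and 5.05 for WT, 6.94 and 6.57 for CBE_1, and 7.11 and 6.55 for CBE_2. The percentiles were 24.03 and 23.1 for WT, 52.6 and 49.3 for CBE_1, and 44.5 and 41.2 for CBE_2. This was the single shared region of the window that ranked higher in all 4 mutated libraries, by 23.4 points on average, and 73 of the 1749 shared regions elsewhere on the chromosome were higher by that much or more. It was the narrowest of the 10, at 567 bp. It stood alone, 127.3 kb from the shared region before it and 46.2 kb from the next.

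The first shared region of the Pcdhb part, from 37424416 to 37425148, had folds of 6.06 and 6.59 for WT, 4.37 and 3.34 for CBE_1, and 6.74 and 7.73 for CBE_2. Its percentiles were 32.9 and 38.1 for WT, 28.2 and 9.72 for CBE_1, and 41.6 and 49.9 for CBE_2. As with the highest peak of the wide Pcdha region, CBE_1 lay below WT and CBE_2 above. The distance between CBE_1 replicate 2 and replicate 1 was larger than that between CBE_1 replicate 1 and WT replicate 1.

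At 37608833 to 37609919 every mutated library was lower. Folds were 6.71 and 6.48 for WT, 4.37 and 3.86 for CBE_1, and 5.03 and 4.08 for CBE_2. Percentiles were 38.6 and 37.3 for WT, 28.2 and 18.3 for CBE_1, and 24.8 and 13.8 for CBE_2. The mutated libraries did not overlap with WT, and the mean difference was -16.6 points.

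The strongest region of the Pcdhb part, from 37636961 to 37638531, had folds of 12.6 and 11.9 for WT, 13.9 and 10.9 for CBE_1, and 8.46 and 9.23 for CBE_2. It stood at percentiles 67.7 and 65.1 for WT, 73.2 and 68.1 for CBE_1, and 53.03 and 57.96 for CBE_2. Here CBE_1 was at or slightly above WT, and CBE_2 below. Ranked within chromosome 18 alone, CBE_2 came nearer to WT, at 62.4 and 66.5 against 70.2 and 67.5. The neighbouring region from 37639095 to 37639891 was present in WT (3.79 and 3.19) and CBE_1 (3.17 and 3.44) and missing from both CBE_2 libraries. The 4 WT-only regions of the Pcdhb part, 37580884 to 37581372, 37595117 to 37595470, 37629176 to 37629806 and 37644446 to 37644825, had folds of 2.86 to 4.00.

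The Pcdhg part held the strongest and widest region of the window, from 37802119 to 37805034, 2916 bp. Folds were 22.4 and 21.97 for WT, 29.1 and 20.01 for CBE_1, and 19.4 and 17.4 for CBE_2. The percentiles were 96.03 and 94.9 for WT, 94.8 and 90.5 for CBE_1, and 89.7 and 87.7 for CBE_2. This region had the highest fold of the window in every list, and its strongest summits lay within 5 bp of one another, at 37803830 in both WT libraries. The WT and CBE_1 libraries differ here by as little as 94.87 against 94.82, and with ranks taken within chromosome 18 the groups overlapped. Beside it, 37797095 to 37798845 was present in WT (3.68 and 3.41) and CBE_1 (3.02 and 2.81) and in neither CBE_2 library. The WT-only region from 37811006 to 37811715 had folds of 4.87 and 5.60, the highest of the 21 WT-only regions, whose folds ran from 2.31 to 5.60 with a median of 3.22 and whose widths ran from 295 to 795 bp. Other WT-only regions of the Pcdhg part were 37784495 to 37784935 (3.14 and 3.52) and 37833771 to 37834073 (3.14 and 4.28).

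At 37821182 to 37821885 folds were 8.87 and 11.4 for WT, 6.18 and 6.67 for CBE_1, and 5.89 and 4.62 for CBE_2. Percentiles were 52.6 and 63.5 for WT, 47.5 and 50.07 for CBE_1, and 33.9 and 20.6 for CBE_2, so all 4 mutated libraries lay below WT and CBE_2 below CBE_1. The region from 37920817 to 37921722 had the same order, with folds of 11.7 and 11.8 for WT, 6.18 and 6.46 for CBE_1, and 5.27 and 5.26 for CBE_2. Its percentiles were 64.6 in WT replicate 1 and 64.7 in WT replicate 2, 47.5 and 48.6 in CBE_1, and 27.5 and 28.4 in CBE_2. Duplicates of each line lay closer together there than the lines did to one another.

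Of the 10 shared regions, the mutated lines differed most from WT at 37945541 to 37947465, 897 kb from the start of the window. Its folds were 17.7 and 18.7 for WT, 3.32 and 3.75 for CBE_1, and 3.31 and 3.76 for CBE_2. On the common scale it stood at percentiles 85.1 and 87.4 for WT, 9.30 and 16.6 for CBE_1, and 5.02 and 10.06 for CBE_2. The mean difference was -76.0 points, and 0 of the 1749 shared regions on the rest of chromosome 18 were lower by as much. Over the genome 4 of 47767 shared regions were, this one included. Width differed too. WT replicate 1 had 1 peak of 1925 bp, and WT replicate 2 had 2 peaks of 1130 and 678 bp. CBE_1 replicate 2 and both CBE_2 libraries had 1 peak each, of 344, 356 and 377 bp, in the distal portion of the region, and CBE_1 replicate 1 had 2, of 200 and 237 bp. The strongest summits were at 37947096 and 37947102 for WT, 37947056 and 37947106 for CBE_1, and 37947103 and 37947248 for CBE_2. The strongest peak of each mutated library thus lay at or near the main WT summit. The other peak of CBE_1 replicate 1 (fold 2.865) had its summit at 37946295, nearer to the weaker WT replicate 2 summit at 37946403. The third CBE_2-absent region, 37911141 to 37911610, lay before it on the chromosome, with folds of 4.22 and 4.39 in WT and 3.62 and 3.44 in CBE_1. Directly after the shared region, 37947681 to 37948143 was WT-only (folds 3.68 and 3.19).

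The next shared region, from 37965492 to 37966909 and 18.03 kb further on, was also lower in every mutated library. Its folds were 21.7 and 21.3 for WT, 10.9 and 7.09 for CBE_1, and 10.2 and 8.70 for CBE_2. The percentiles were 94.9 and 93.7 for WT, 66.9 and 52.8 for CBE_1, and 60.7 and 55.5 for CBE_2. The mean difference was -35.4 points, and 45 of 1749 shared regions on the rest of chromosome 18 were lower by as much. The deposited peaks were of similar width, 1293 and 1400 bp in WT against 1020 to 1277 bp in the mutated libraries, so the lines differed in rank here and less in width. WT-only regions lay around this pair and beyond it, among them 37964834 to 37965168 (3.68 and 3.85), 37992079 to 37992538 (2.81 and 3.30) and 38002288 to 38003082 (3.79 and 3.08). Near the end of the window, 37994854 to 37996416 had folds of 5.19 and 5.71 in WT and 4.05 and 3.87 in CBE_2, and no peak in CBE_1. The second widest region, 37998958 to 38001422, was found in both WT libraries (5.41 and 3.63), in CBE_1 replicate 2 (2.92) and in CBE_2 replicate 2 (2.58).

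The shared regions also differed in width between the lines. Peaks covered a median of 1128 and 1202 bp of a shared window region for WT, 562.5 and 563.0 bp for CBE_1, and 583.0 and 560.0 bp for CBE_2. On the rest of the chromosome the medians were 898.0 and 868.0 bp for WT, 692.0 and 758.0 bp for CBE_1, and 663.0 and 661.0 bp for CBE_2. Shared window regions were wider than those elsewhere in WT and narrower in every mutated library. How far list length and read depth set these widths was not tested.

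Few regions were found in the mutated lines alone. Of the 96 regions, 10 (10.4%) lay in neither WT library, against 21.0% on the rest of chromosome 18. The region from 37879785 to 37880253 stood out among them, with folds of 6.13 and 5.58 in the CBE_2 libraries, at percentiles 64.4 and 62.5 of those lists, and no peak in any other library. The other CBE_2-only region, from 37815209 to 37815542, was weak (2.70 and 2.90) and is named after its values were seen, as is 37866659 to 37867196, found in both CBE_1 libraries (2.87 and 3.02) and CBE_2 replicate 1 (3.19). The remaining 7 were found in 1 CBE_1 library each. In the whole window 41 regions (42.7%, near the 38.5% on the rest of the chromosome) were found in 1 library alone. Of these, 34 lay in a WT library, with folds of 2.27 to 4.11, and none in a CBE_2 library. This split by line was not compared with the rest of the chromosome, and the WT lists were the longest. Duplicates shared 59.3% of their regions in the window and 59.35% on the rest for WT. The values were 46.9% and 51.07% for CBE_1, and 78.6% and 75.6% for CBE_2. The remaining CBE_1-absent regions, 3 in number and all in the Pcdhb part, had folds of 2.33 to 5.63.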

How the data were processed

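ATAC-seq peak lists of 6 libraries were used, 1 list per library. Per the submitters' processing notes the tools were Trimmomatic, Bowtie2, SAMtools and Picard and the build was mm9. The peak caller is not given in the sources used here. Each deposited peak carries a fold over background, a −log10 p and a −log10 q value, a summit, and a score, which the authors wrote as the whole part of 10 times the −log10 q value in every peak. These deposited ratios and scores are relative to each list's own background. They were used only to rank peaks within a list, and read depth is unknown.

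Peaks of all lists were merged where they overlapped by 1 bp or more, with pandas 2.3.3 and NumPy 2.4.6 in Python 3.11.15, and a region's fold in a library is its highest peak's. Percentiles were taken over regions present in all 6 libraries. Tests over the 15 choices of 2 libraries were exact and two-sided, run with own code checked on simulated lists, and Benjamini-Hochberg adjusted over 9 tests. Wilson intervals came from SciPy 1.17.1. The threshold was 0.05, which no test here can pass. Replicates were numbered in accession order. No 2 lists were identical.

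The rule for named regions took those present in all libraries and those that follow a pattern of presence, at most 30, by their lowest percentile within a list, and the 3 widest. This gave 30 of 42 candidates, and 31 regions with the widest. The window, the patterns and the tests were chosen with earlier results of these data known. Alternatives were a stricter list, lists of the same length, an overlap of at least 100 bp, a window widened by 50 kb on each side, and leaving out each library. Gene names and their order came from RefSeq's table of GRCm38.p6, without coordinates.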

Additional observations from a re-analysis of the deposited data

Results flagged for a closer look

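At 3 of the 10 regions present in every library, the mutated lines differed from WT in opposite directions, and the duplicates of each line did so together. On the rest of chromosome 18 this was so at 245 of 1749 shared regions (14%). At 37247980 to 37250387 in the Pcdha part, CBE_1 ranked below WT and CBE_2 above it, and the CBE_1 change minus the CBE_2 change was -23.13 percentile points. The strongest summit there lay at 37248418 and 37248424 in CBE_2 but at 37249483 and 37249511 in WT. Those ranks therefore come from different open sites. At 37424416 to 37425148 in the Pcdhb part the directions were the same and the value was -26.78 points. At 37636961 to 37638531, also in the Pcdhb part, CBE_1 ranked above WT and CBE_2 below, a value of 15.14 points. CBE_1 replicate 2 passed WT replicate 1 only narrowly there, at percentile 68.09 against 67.68. Ranked within chromosome 18 alone, CBE_2 came nearer to WT there, at 62.4 and 66.5 against 70.2 and 67.5. No test was made of CBE_1 against CBE_2 at these regions.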

How the results depend on the processing

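Of 173 values recomputed under alternatives, 151 stayed on their side with the same direction or within 1.5 times of the count, 18 counts moved further and 4 differences turned. With the better 50% of each list, regions numbered 28, WT-only 11 (39.3% of regions, 17.1% on the rest of chromosome 18), CBE_2-only 1 (3.57%, 1.88%), CBE_1-absent 2 (7.14%, 3.75%) and CBE_2-absent 0 (1.79% on the rest). With lists of the same length, regions numbered 54, WT-only 6 (11.1%, 5.59% on the rest), CBE_2-only 1 (1.85%, 0.573%) and CBE_1-absent 3 (5.56%, 0.627%). Fewer peaks entered in both settings. Widening the window by 50 kb on each side gave 16 regions in all libraries (14.55%, 20.75% on the rest) and 1 CBE_1-only region (0.909%, 1.98% on the rest). Leaving out 1 library at a time gave 21 to 43 WT-only, 0 to 4 CBE_1-only, 2 to 6 CBE_2-absent and 0 to 1 mutated-only regions. WT-only shares ran from 21.65% to 50.0%, against 11.03% to 27.3% on the rest. CBE_1-only regions stayed below the rest, at 3.26% against 10.7% without CBE_1 replicate 1 and 4.30% against 9.07% without CBE_1 replicate 2. The 1 mutated-only region, without CBE_2 replicate 2, made up 1.04% against 1.17%. Over the same omissions the CBE_2 difference in share of peaks ranged from -0.173 to 0.120 percentage points and turned without WT replicate 1 (0.0475), WT replicate 2 (0.120) and CBE_2 replicate 2 (0.0174). Likewise over these omissions, the CBE_1 difference in median percentile ranged from -8.30 to 2.94 points and turned without CBE_1 replicate 2 (2.94). The cause was not tested. With percentiles from chromosome 18 alone, chosen after seeing the data, the WT, CBE_1 and CBE_2 differences were 14.3, -8.35 and -5.98 points. No paired analysis was possible because the labels give the duplicates no replicate numbers. With 6 lists the smallest exact permutation p is 0.0667, and read depth is unknown.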
